A study of Mus musculus with 13 samples.

Results

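The genes described here were 10 genes of hepatic fatty acid synthesis, chosen by symbol from the 27141 genes of the count and FPKM tables: Acly, Slc27a2, Acaca, Acacb, Fasn, Elovl6, Scd1, Me1, Srebf1 and Thrsp. Acly was included because it encodes the target of activated ETC-1002, and Slc27a2 because it encodes the enzyme that activates this compound. All 10 were found in both tables and all 10 passed the filter on low counts. RNA-seq was performed on dHeps, which are hepatocytes isolated by liver perfusion from wild-type mice injured with carbon tetrachloride (CCl4), after 16 days in serum-free medium. The cultures received the solvent dimethyl sulfoxide (DMSO), the full cocktail of 5 compounds (5C), or 5C with 1 compound left out. The cocktail held GSK429286A (G), which inhibits the kinase ROCK, CID755673 (C), which inhibits protein kinase D, ETC-1002 (E), an activator of the kinase AMPK, the adenylate cyclase activator forskolin (F) and the plant glycoside Salidroside (S). Each group had 2 libraries, called A and B, except 5C without Salidroside (5C-S), which had 1; the letter after the hyphen always names the compound left out. All groups, DMSO included, came from CCl4-injured livers, so none shows the uninjured state. The study's methods call its replicates separate biological ones without saying whether these were cultures or animals, and p-values measure the spread between these libraries only.

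Cytosolic fatty acid synthesis begins when citrate exported from mitochondria is split by ATP citrate lyase (Acly) into oxaloacetate and acetyl-CoA. Acetyl-CoA carboxylase (Acaca in the cytosol, Acacb at the mitochondrial surface) turns acetyl-CoA into malonyl-CoA, fatty acid synthase (Fasn) builds palmitate from it with NADPH that malic enzyme (Me1) helps to supply, and Elovl6 and Scd1 elongate and desaturate the product. In the liver the transcription factor Srebf1 and the small nuclear protein Thrsp are known for promoting this programme, and AMPK phosphorylates and restrains acetyl-CoA carboxylase. ETC-1002 (bempedoic acid) is a prodrug that the very long chain acyl-CoA synthetase encoded by Slc27a2 converts to a CoA thioester, and this thioester inhibits Acly.

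On GRCm39 the members lay at separate loci, of which Acly (chr11:100367165-100440756, minus strand), Acaca (chr11:84020476-84292477, plus strand), Srebf1 (chr11:60089913-60113407, minus strand) and Fasn (chr11:120696672-120715995, minus strand) shared chromosome 11. Slc27a2 lay at chr2:126394327-126430166 on the plus strand and Scd1 at chr19:44382894-44399154 on the minus strand. Acacb lay at chr5:114284307-114388822 (plus), Elovl6 at chr3:129326004-129432144 (plus), Me1 at chr9:86462646-86578104 (minus) and Thrsp at chr7:97062139-97066937 (minus). All 10 are annotated as protein-coding in GENCODE M39. Acly shared 4324 bases with Odad4 on the opposite strand and Me1 shared 2146 bases with Rwdd2a on the opposite strand. The handling of strand in the counting was not given in the sources used here, so reads in these stretches are uncertain.

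The 250 bases before the start of the canonical transcript are shown for the drug target, its activating enzyme and the desaturase, the last being a member that differed when G or C was left out. They were read from the GRCm39 genome on the strand of each gene, for Acly at chr11:100418827-100419076 (minus), for Slc27a2 at chr2:126394077-126394326 (plus) and for Scd1 at chr19:44396341-44396590 (minus). Capitals mark every match on either strand to the sterol regulatory element TCACNCCAC, the E-box CACGTG, the CCAAT box CCAAT and the GC box GGGCGG.
Acly: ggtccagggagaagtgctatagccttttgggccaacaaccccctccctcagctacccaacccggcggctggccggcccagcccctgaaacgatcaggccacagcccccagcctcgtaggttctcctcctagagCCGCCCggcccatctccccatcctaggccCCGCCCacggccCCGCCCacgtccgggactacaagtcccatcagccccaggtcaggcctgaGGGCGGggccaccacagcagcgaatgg
Slc27a2: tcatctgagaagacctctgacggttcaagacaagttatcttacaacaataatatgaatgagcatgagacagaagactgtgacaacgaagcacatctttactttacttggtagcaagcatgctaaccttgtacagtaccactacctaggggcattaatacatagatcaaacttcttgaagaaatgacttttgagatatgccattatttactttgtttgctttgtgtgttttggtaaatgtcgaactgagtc
Scd1: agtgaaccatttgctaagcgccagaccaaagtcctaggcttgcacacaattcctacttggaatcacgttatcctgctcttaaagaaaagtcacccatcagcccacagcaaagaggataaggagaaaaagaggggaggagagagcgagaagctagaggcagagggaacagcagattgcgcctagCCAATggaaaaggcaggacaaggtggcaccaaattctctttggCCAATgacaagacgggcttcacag
The Acly window held 4 GC boxes and the Scd1 window held 2 CCAAT boxes. The Slc27a2 window held none of these letters, and neither did those of Acacb, Elovl6, Me1 and Thrsp. The Acaca window held 1 sterol regulatory element and 1 E-box, and the Srebf1 window 1 GC box. Among 17390 windows of the same length before protein-coding genes in the count table, 1.17% held the sterol regulatory element, 7% the E-box, 35.5% the CCAAT box and 43% the GC box. None of the matches overlapped another, and a match describes the window and is not a binding site.

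Total counts ran from 30195867 to 45491932 per library, and the lowest count of any member was 78, for Thrsp in 5C-G A. Hepatocyte markers were present in every library, with albumin (Alb) between 2120 and 18300 FPKM. The summed FPKM of 10 hepatocyte markers, most of it from Alb, was 11100 to 12300 in DMSO, 11200 to 11300 in 5C, 6970 to 8270 in 5C-G, 4980 to 5490 in 5C-C, 3390 to 3920 in 5C-E, 17500 to 21900 in 5C-F and 7400 in 5C-S. Of the 10, 2 were called lower in 5C than in DMSO, and against 5C 2 were called higher and 5 lower in 5C-G, 0 and 4 in 5C-C, 0 and 5 in 5C-E and 2 and 0 in 5C-F. The sum of 10 macrophage markers was 4820 to 4850 in DMSO and 4780 to 6740 in 5C-G, against 510 to 590 in 5C, 946 to 1600 in 5C-C, 680 to 799 in 5C-E, 1610 to 1930 in 5C-F and 612 in 5C-S. Of these 10, 9 were called lower in 5C than in DMSO, and against 5C 9 were called higher in 5C-G, 8 in 5C-F, 4 in 5C-C (where 1 was lower) and 0 in 5C-E. The sum of 7 liver endothelial markers was 78.2 to 89.7 FPKM in DMSO, 12.6 to 14.1 in 5C, 41.6 to 45.3 in 5C-G, 27.3 to 28.7 in 5C-E and 9.69 to 18.8 in the other groups. Most of it came from Lyve1 and Kdr, and the rest stayed at or under 0.611 FPKM each. For 5C against DMSO 0 were called higher and 1 lower (median log2 fold change -0.725). Against 5C, 1 was called higher and 2 lower in 5C-G (-0.11), and 1 higher and 0 lower in 5C-E (0.77) and in 5C-F (0). In 5C-C 0 were called (0.54). The sum of 7 cholangiocyte markers, most of it from Spp1 (1320 to 3240 FPKM), was 1650 to 1990 in 5C, 3180 to 3430 in 5C-F, 2600 to 2960 in DMSO and 1460 to 2440 in the other groups. For 5C against DMSO 2 of the 7 were called higher and 0 lower (median log2 fold change 0.72). Against 5C, 3 were called lower and 0 higher in 5C-G (-1.46), and 1 higher and 0 lower in 5C-C (0.62) and in 5C-F (0.81). In 5C-E 0 were called (0.13). The sum of 10 stellate cell and fibroblast markers was 1470 in 5C, 1950 to 2340 in 5C-G, 900 to 989 in 5C-F and 1270 to 1810 in the other groups. Against 5C, 2 of these were called higher and 2 lower in 5C-G (median log2 fold change -0.20), and 1 and 3 in 5C-C (-0.63). The calls were 1 higher and 2 lower in 5C-E (-0.04) and 0 and 1 in 5C-F (-0.28). For 5C against DMSO 1 was called higher and 1 lower (0.13). The sum of the fat cell markers lay between 6.98 and 23.9. Of the fat cell markers, Adipoq and Lep had at most 4 and 2 counts in any library, Plin1 at most 12 and Retn at most 84, while Fabp4 was at 4.49 to 16 FPKM and Lipe at 2.5 to 6.81 FPKM in all libraries. Of the 4 fat cell markers tested, 3 were called higher than 5C in 5C-C (median log2 fold change 3.51), 1 in 5C-G (0.74) and 1 in 5C-F (2.06), and 0 were called in 5C-E (2.04). The part of these marker lists in the differences of the members and of the list genes was not tested. The spread between the 2 libraries of a group was unequal, with a chi-square of their counts over its degrees of freedom of 8.01 in DMSO, 14.1 in 5C and 28.9 in 5C-E, against 62.9 in 5C-F, 75.7 in 5C-C and 86.6 in 5C-G, while the fit used 1 spread per gene for all groups. In these bulk samples fewer cells of a type and less RNA per cell cannot be told apart. Log2 fold changes against 5C rose with the GC content of the gene, with Spearman's rho across 12569 genes of 0.48 after removal of G, 0.55 after that of C, 0.48 after that of E and 0.38 after that of F, and of -0.30 for 5C against DMSO. Genes are not independent replicates, so no p is given for these.

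On the FPKM scale, which allows levels of different genes to be compared, Scd1 was the most abundant member, with 32.5 to 126 FPKM over the 13 libraries. Me1 lay between 20.2 and 58.8 FPKM, Acly between 15.2 and 50.1, Srebf1 between 19.3 and 31.8 and Fasn between 10.9 and 23.4. Slc27a2 spanned the widest range of the 10, 8.63-fold from 2.69 FPKM in 5C-C B to 23.2 FPKM in 5C-F A. Acaca, Acacb, Elovl6 and Thrsp reached at most 5.16 FPKM in any of the 13 libraries. Srebf1 had the narrowest range of the 10, at 1.65-fold.

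**Figure D1:**
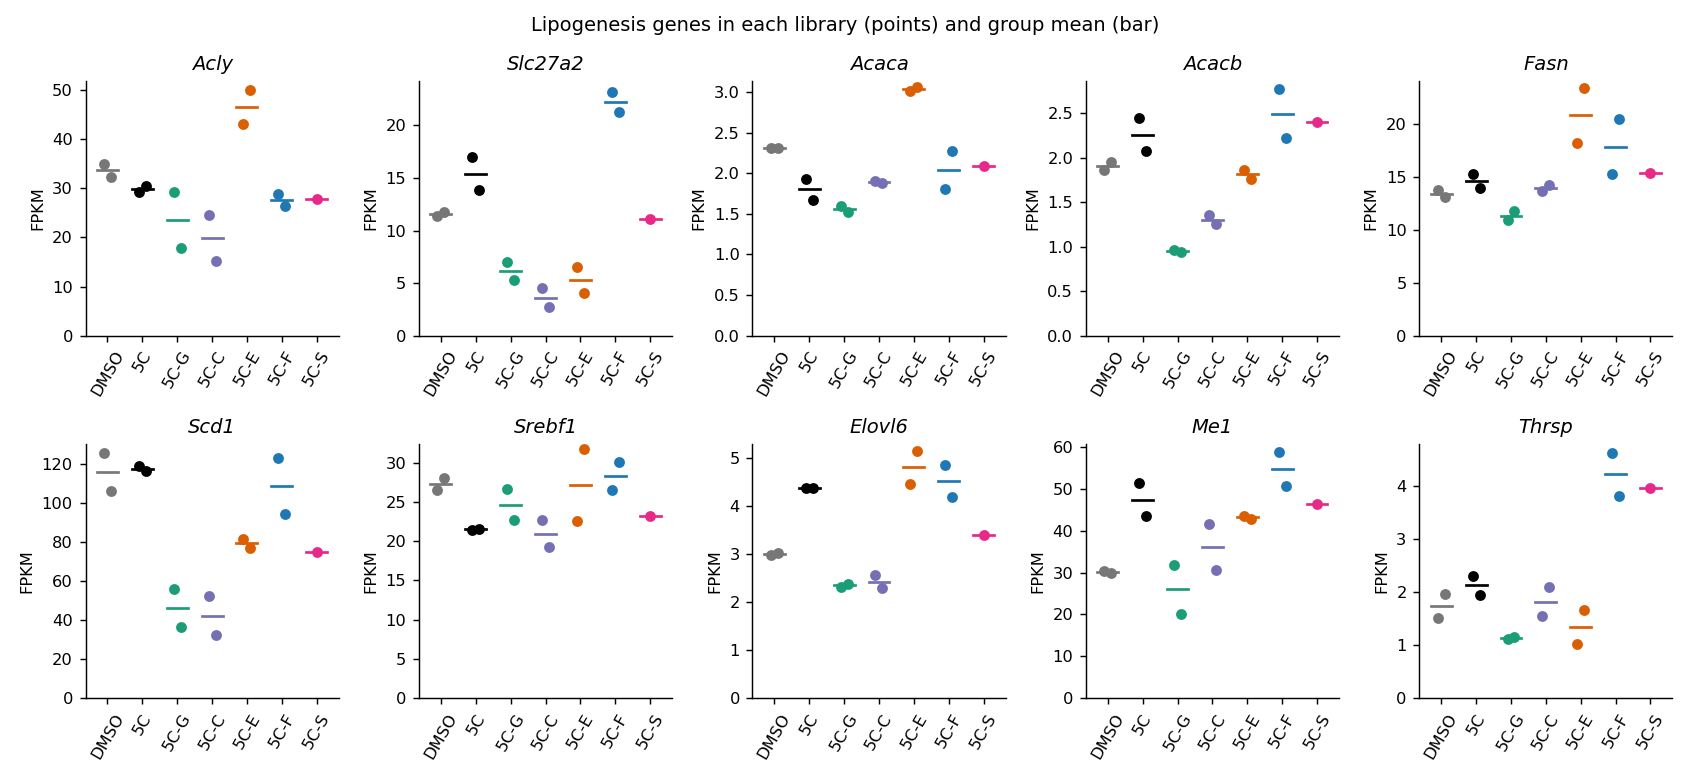
FPKM of each lipogenesis gene (y axis, each panel with its own scale from 0) by group (x axis); points are libraries and the short bar is the group mean (2 libraries per group, 1 for 5C-S). Slc27a2 lay between 2.69 and 7.03 FPKM without G, C or E and between 21.3 and 23.2 FPKM in 5C-F, while Acly was highest in 5C-E.

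A call in what follows is a Benjamini-Hochberg adjusted p under 0.05 in edgeR's quasi-likelihood test over all 19884 genes together with a log2 fold change beyond 1. For 5C against DMSO, 0 of the 10 members were called, where 1.66% of all genes were called higher and 2.89% lower. Of the 10, 4 had an unadjusted p under 0.05, 0 passed the adjusted p alone (6.34% of all genes did), and DESeq2 and limma called 0 as well. When G was left out, 3 of 10 were lower than in 5C (Slc27a2, Scd1 and Acacb) and 0 were higher, against 5.64% lower and 7.47% higher among all genes. When C was left out, 2 of 10 were lower (Slc27a2 and Scd1) and 0 higher, against 10.5% and 9.65%. When E was left out, 1 of 10 was lower (Slc27a2) and 0 higher, against 1.31% and 0.654%. When F was left out, 0 of 10 were called in edgeR, against 2.69% higher and 2.15% lower, with 4 at an unadjusted p under 0.05. DESeq2 called 1 member there (Thrsp) and limma 0.

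Without regard to the size of the change, 5 members passed the adjusted p for 5C-G against 5C (25.6% of all genes), 4 for 5C-C (35.8%), 2 for 5C-E (2.94%) and 0 for 5C-F (10.7%). The median log2 fold change of the 10 members was 0.11 for 5C against DMSO, -0.76 without G, -0.33 without C, -0.07 without E and 0.29 without F, where the median of all genes lay between -0.01 and 0.01. The removal comparisons share the 5C libraries, so the members that recur in them are not independent observations.

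**Figure D2:**
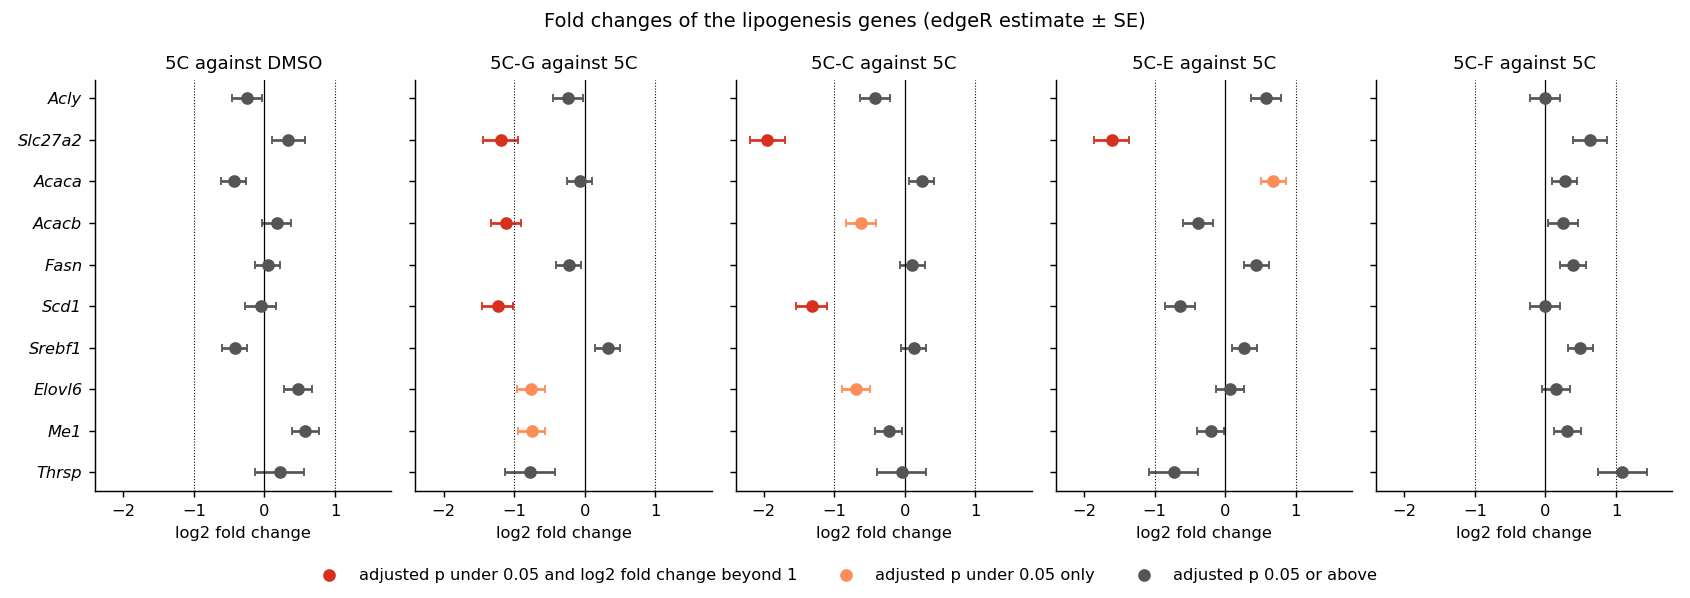
Log2 fold change of each member (y axis) in the 5 comparisons, as the edgeR estimate with its SE (2 libraries per group); dotted lines mark a log2 fold change of 1 in either direction. Slc27a2 lay beyond the lower line in 5C-G, 5C-C and 5C-E, Scd1 in 5C-G and 5C-C, and Acacb in 5C-G.

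Slc27a2, the enzyme that activates ETC-1002, was lower than in 5C after removal of G, C or E. It stood at 11.4 and 11.8 FPKM in DMSO and at 17.0 and 13.8 FPKM in 5C (libraries A and B). It stood at 7.03 and 5.33 FPKM in 5C-G, at 4.51 and 2.69 in 5C-C, at 6.51 and 4.08 in 5C-E, at 23.2 and 21.3 in 5C-F and at 11.1 in the 5C-S library. The libraries of 5C-G, 5C-C and 5C-E were all below those of DMSO and 5C, and those of 5C-F were above all others. Relative to 5C the gene fell 2.29-fold in 5C-G (log2 fold change -1.19, SE 0.244, adjusted p = 0.00196), 3.85-fold in 5C-C (-1.95, SE 0.25, adjusted p = 4.63e-05) and 3.05-fold in 5C-E (-1.61, SE 0.246, adjusted p = 0.000943). These 3 calls held in every alternative that was run. The difference for 5C-F against 5C was 0.63 (SE 0.239, adjusted p = 0.0998) and that for 5C against DMSO 0.34 (SE 0.239, adjusted p = 0.525). Neither passed the test.

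In the order of mean FPKM, Slc27a2 ran from 5C-F through 5C, DMSO, 5C-G and 5C-E to 5C-C, where 5C-G overlapped with 5C-E and 5C-E with 5C-C. Between single removals, 5C-F was 4.73-fold above 5C-E (log2 fold change 2.24, SE 0.251, adjusted p = 1.25e-05), whereas 5C-E differed from 5C-G by -0.42 (95% interval -0.93 to 0.10, adjusted p = 0.256) and from 5C-C by 0.34 (95% interval -0.18 to 0.85, adjusted p = 0.344). The hepatocyte marker sums given above were also below those of 5C in 5C-G, 5C-C and 5C-E and above them in 5C-F, although in 5C-G 2 of the 10 markers were called higher. Over the 6 group means of log2 CPM, the genes whose pattern was most like that of Slc27a2 among 10307 genes were Serpind1, which encodes the plasma protein heparin cofactor (Pearson's r = 0.998), Abcc12 (0.994), Dnase2b (0.994), Cyp2b9 (0.993) and Gm12500 (0.991). Serpind1 had mean levels of 27.2 FPKM in 5C, 6.95 without C, 9.23 without E and 36.5 without F. Of these 5 genes only Serpind1 and Dnase2b exceeded 1 FPKM in any group.

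Acly, the target of the activated compound, stood at 35.0 and 32.3 FPKM in DMSO and at 29.2 and 30.4 in 5C. It stood at 29.2 and 17.8 FPKM in 5C-G, at 24.6 and 15.2 in 5C-C, at 43.1 and 50.1 in 5C-E, at 28.9 and 26.5 in 5C-F and at 27.8 in 5C-S. Both libraries without ETC-1002 were above the other 11, and the libraries of 5C-G and of 5C-C differed widely from each other. The difference of 5C-E from 5C was 0.57 on the log2 scale (1.49-fold, SE 0.214, 95% interval 0.12 to 1.03), with an unadjusted p of 0.016 and an adjusted p of 0.198, and did not pass the test. With only the 2 groups in the fit the adjusted p was 0.00867 at 0.58, still short of the fold threshold. Over the other alternatives it ran from 0.0499 to 0.948.

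Acly did not pass the test in the other comparisons with 5C as reference. Its log2 fold change was -0.23 in 5C-G (adjusted p = 0.473), -0.43 in 5C-C (adjusted p = 0.135) and -0.0086 in 5C-F (adjusted p = 0.999), and -0.25 for 5C against DMSO (adjusted p = 0.628). Between removals, Acly was called higher in 5C-E than in 5C-C, at 2-fold (log2 fold change 1.00, SE 0.216, adjusted p = 0.00269). The call stood just past the fold threshold and was lost with DESeq2 (0.98), with an offset for GC content and gene length (0.80), without 5C-C B (0.72) and without 5C-E B (0.89). Acly passed the adjusted p but not the fold threshold in 5C-E against 5C-G (0.80, SE 0.215, adjusted p = 0.0151). In the order of mean FPKM it ran from 5C-E through DMSO, 5C, 5C-F and 5C-G to 5C-C, where 5C-F overlapped with 5C-G and 5C-G with 5C-C.

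The ratio of Acly to Slc27a2 FPKM put both genes on a single scale. It was 3.08 and 2.75 in DMSO, 1.72 and 2.20 in 5C, 4.15 and 3.34 in 5C-G, 5.45 and 5.66 in 5C-C, 6.63 and 12.3 in 5C-E, 1.24 and 1.24 in 5C-F and 2.51 in 5C-S. It was highest in both 5C-E libraries and lowest in both 5C-F libraries. The genes most like Acly over the 6 group means among 10308 genes were Gm43951 (Pearson's r = 0.976), Plag1 (0.973), Gbp9 (0.973), Gm5970 (0.972) and Zfp551 (0.970). Only Gbp9, which encodes a guanylate-binding protein, and Zfp551 exceeded 1 FPKM in any group, with means of 3.01 FPKM for Gbp9 and 1.06 FPKM for Zfp551 in 5C-E. The other 3 rest on few reads.

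**Figure D3:**
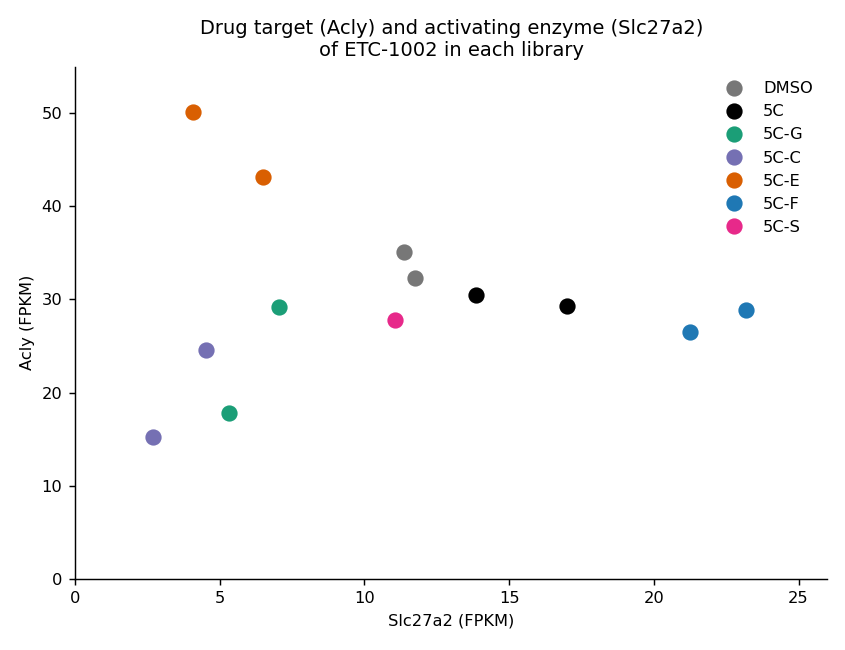
Acly FPKM (y axis) against Slc27a2 FPKM (x axis) in each of the 13 libraries, coloured by group. The 5C-E libraries lie at the top left, at 43.1 and 50.1 FPKM of Acly with 6.51 and 4.08 FPKM of Slc27a2, and the 5C-F libraries at the right, at 23.2 and 21.3 FPKM of Slc27a2.

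Of the 2 acetyl-CoA carboxylases, Acacb was called lower without G, and Acaca passed the adjusted p as higher without E. Acacb, the mitochondrial form, stood at 2.44 and 2.08 FPKM in 5C and at 0.965 and 0.938 FPKM in 5C-G, 1.36 and 1.26 in 5C-C, 1.87 and 1.76 in 5C-E, 2.77 and 2.22 in 5C-F, 1.86 and 1.95 in DMSO and 2.41 in 5C-S. The 5C-G libraries were the lowest of the 13. Acacb fell 2.16-fold in 5C-G (log2 fold change -1.11, SE 0.215, adjusted p = 0.00137), a call that was lost on the log2(FPKM + 1) scale (-0.74), where low values are compressed. In 5C-C the change of -0.63 passed the adjusted p (0.0288) but not the fold threshold, and in 5C-E it was -0.39 (adjusted p = 0.425). Without any 1 library of 5C or 5C-C the adjusted p in 5C-C lay between 0.063 and 0.184.

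Acaca, the cytosolic form, stood at 1.93 and 1.67 FPKM in 5C, 1.60 and 1.52 in 5C-G, 1.91 and 1.88 in 5C-C, 3.01 and 3.06 in 5C-E, 1.8 and 2.28 in 5C-F, 2.31 and 2.31 in DMSO and 2.09 in 5C-S. Both 5C-E libraries were above the other 11. Acaca rose in 5C-E relative to 5C by 0.68 (1.61-fold, SE 0.176, adjusted p = 0.0444), short of the fold threshold, and leaving out any 1 of these 4 libraries raised the adjusted p to between 0.118 and 0.381. The ratio of Acaca to Acacb FPKM was 0.790 and 0.805 in 5C, 1.65 and 1.62 in 5C-G, 1.41 and 1.5 in 5C-C, 1.61 and 1.74 in 5C-E, 0.649 and 1.02 in 5C-F, 1.24 and 1.19 in DMSO and 0.868 in 5C-S. In 5C it was below both DMSO libraries and below all libraries of 5C-G, 5C-C and 5C-E.

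Fasn, the synthase itself, was not called by edgeR in any comparison. It stood at 13.75 and 13.05 FPKM in DMSO, 15.2 and 13.9 in 5C, 10.9 and 11.7 in 5C-G, 13.7 and 14.2 in 5C-C, 18.1 and 23.4 in 5C-E, 15.3 and 20.4 in 5C-F and 15.3 in 5C-S. The 5C-E libraries were above both 5C libraries, with a log2 difference of 0.44 (SE 0.181, adjusted p = 0.251), and the 5C-G libraries were below them, with -0.23 (SE 0.181, adjusted p = 0.398). The difference for 5C against DMSO was 0.04 (95% interval -0.34 to 0.43, adjusted p = 0.95). The 5C-E libraries of Fasn also passed the adjusted p against 5C-G (0.67, SE 0.182, adjusted p = 0.0166), short of the fold threshold.

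Scd1, the stearoyl-CoA desaturase, was the most abundant member and was lower without G or C. It stood at 126 and 106 FPKM in DMSO and at 119 and 117 in 5C. It stood at 56.1 and 36.4 FPKM in 5C-G, at 52.2 and 32.5 in 5C-C, at 81.7 and 77.2 in 5C-E, at 123 and 94.5 in 5C-F and at 74.8 in 5C-S. The libraries of 5C-G and 5C-C were below the other 9. Scd1 fell 2.35-fold in 5C-G (log2 fold change -1.23, SE 0.219, adjusted p = 0.000744) and 2.49-fold in 5C-C (-1.32, SE 0.22, adjusted p = 0.000272). With an offset for GC content and gene length the changes were -0.98 and -0.97, past the adjusted p (0.000432 and 0.000453) but not the fold threshold. The median log2 fold change of the 10 hepatocyte markers was -1.02 in 5C-G, where Acacb was also lower, and -0.81 in 5C-C. The same median was lower still without E, at -1.52, although Scd1 was not called there. For removal of F the median was 0.71. In 5C-E the change of Scd1 of -0.64 had an adjusted p of 0.15, and in 5C-F it was -0.0080 (adjusted p = 1).

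Elovl6, the elongase that acts on palmitate, stood at 2.98 and 3.03 FPKM in DMSO, 4.38 and 4.39 in 5C, 2.32 and 2.39 in 5C-G, 2.57 and 2.29 in 5C-C, 4.47 and 5.16 in 5C-E, 4.86 and 4.19 in 5C-F and 3.40 in 5C-S. Libraries without G or C were the lowest of the 13. Its changes of -0.76 in 5C-G (adjusted p = 0.00954) and -0.69 in 5C-C (adjusted p = 0.0117) passed the adjusted p and not the fold threshold. Elovl6 had the lowest GC content of the members, 44.2%, and with the offset for GC content and gene length the changes were -0.24 (adjusted p = 0.447) and 0.05 (adjusted p = 0.9).

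Me1, the cytosolic malic enzyme, stood at 30.3 and 29.98 FPKM in DMSO, 51.3 and 43.6 in 5C, 31.8 and 20.2 in 5C-G, 41.7 and 30.7 in 5C-C, 43.5 and 42.7 in 5C-E, 58.8 and 50.5 in 5C-F and 46.4 in 5C-S. Both 5C libraries were above both DMSO libraries, at a log2 difference of 0.58 (1.49-fold, SE 0.193, adjusted p = 0.0966) that did not pass the test. With the offset for GC content and gene length this difference was 0.51 and passed the adjusted p (0.0342), short of the fold threshold. Me1 fell in 5C-G by 0.75 on the log2 scale (SE 0.194, adjusted p = 0.00911), short of the fold threshold. Without 5C A the adjusted p of this change was 0.097 and without 5C-G B it was 0.109. In 5C-C the change was -0.23 (adjusted p = 0.383) and in 5C-E -0.21 (adjusted p = 0.693).

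Of the regulators, Srebf1, the transcription factor of the programme, was not called by edgeR in any comparison either. It stood at 26.6 and 28.0 FPKM in DMSO, 21.5 and 21.5 in 5C, 26.6 and 22.65 in 5C-G, 22.6 and 19.3 in 5C-C, 22.6 and 31.8 in 5C-E, 26.6 and 30.02 in 5C-F and 23.2 in 5C-S. Its largest difference from 5C was 0.49 in 5C-F (SE 0.177, adjusted p = 0.0827), and 5C differed from DMSO by -0.42 (SE 0.177, adjusted p = 0.218). Thrsp stood at 1.51 and 1.96 FPKM in DMSO, 2.30 and 1.95 in 5C, 1.11 and 1.15 in 5C-G, 1.54 and 2.10 in 5C-C, 1.03 and 1.67 in 5C-E, 4.61 and 3.82 in 5C-F and 3.96 in 5C-S. The 5C-F libraries and the 5C-S library were above the other 10. The change in 5C-F against 5C was 1.09 (2.13-fold, SE 0.344) with an adjusted p of 0.0517, just short of the test, and 0.019 with DESeq2. With the offset for GC content and gene length the change of Thrsp in 5C-F was 0.81 (adjusted p = 0.122). In 5C-G it was -0.77 (adjusted p = 0.12) and in 5C-E -0.73 (adjusted p = 0.352).

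With Salidroside left out there was a single library and no test. Among 18265 genes, 13.8% had a log2 ratio to 5C beyond 1, and 0 of the 10 members did. Thrsp had the highest ratio at 0.88 and Scd1 the lowest at -0.67. Acly was at -0.12, Slc27a2 at -0.49 and Fasn at 0.06. Slc27a2, Acly, Scd1 and Elovl6 were below both 5C libraries on the scale of TMM-normalized CPM, Acaca, Fasn, Srebf1 and Thrsp were above both, and Acacb and Me1 lay between them.

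Against DMSO, 1 member was called for 5C-G, where 5.83% of all genes were called in either direction: Scd1 was 2.44-fold lower (log2 fold change -1.28, SE 0.22, adjusted p = 0.00234). For 5C-C 2 members were called (22.1% of all genes), with Slc27a2 3.04-fold lower (-1.61, SE 0.248, adjusted p = 0.000112) and Scd1 2.59-fold lower (-1.37, SE 0.22, adjusted p = 0.000157). For 5C-E 1 member was called (6.09% of all genes), with Slc27a2 2.41-fold lower (-1.27, SE 0.245, adjusted p = 0.00211). Without 5C-E B this change was -0.97 with an adjusted p of 0.0661. For 5C-F 1 member was called (7.40% of all genes), with Thrsp 2.48-fold higher (1.31, SE 0.347, adjusted p = 0.018). The call of Thrsp was lost without DMSO A (1.15, adjusted p = 0.189), without DMSO B (1.51, adjusted p = 0.0761), without 5C-F A (1.12, adjusted p = 0.106) and on the log2(FPKM + 1) scale (0.93).

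Several members passed the adjusted p against DMSO without reaching the fold threshold. In 5C-F these were Slc27a2 (0.97, adjusted p = 0.0123), Me1 (0.89, adjusted p = 0.00554) and Elovl6 (0.62, adjusted p = 0.045), all higher. In 5C-G they were Slc27a2 (-0.85, adjusted p = 0.028) and Acacb (-0.94, adjusted p = 0.0113), and in 5C-C it was Acly (-0.68, adjusted p = 0.0199), all lower. These comparisons share the DMSO libraries.

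Between single removals, 0 members were called for 5C-E against 5C-G in edgeR (9.31% of all genes were called), although 5 passed the adjusted p and 7 had an unadjusted p under 0.05. DESeq2 called 0 there, and limma called 2 with a pseudocount of 0.1 and 0 with a pseudocount of 1. The 5 members, all higher in 5C-E, were Acly, Acaca (0.76, adjusted p = 0.00699), Acacb (0.72, adjusted p = 0.0253), Fasn and Elovl6 (0.83, adjusted p = 0.0083). For 5C-E against 5C-C 1 member was called (13.7% of all genes), which was Acly. For 5C-F against 5C-E 2 members were called (8.74% of all genes), Slc27a2 and Thrsp, the latter 3.53-fold higher in 5C-F (1.82, SE 0.353, adjusted p = 0.00176). Acly was lower in 5C-F than in 5C-E by -0.58 (SE 0.214, adjusted p = 0.073), which did not pass the test.

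The neighbouring steps of lipid metabolism were described by 8 lists of 84 genes in all, every one of which was tested. For 5C against DMSO, 0 of the 84 genes were called higher and 1 lower. This was Acss1, a mitochondrial acetyl-CoA synthetase, which fell 6.10-fold from a low level (0.994 to 0.171 FPKM, adjusted p = 0.00972). Without 5C B the adjusted p was 0.166, and without DMSO A it was 0.0614. For 5C-G 6 were called higher and 9 lower, for 5C-C 11 higher and 8 lower, for 5C-E 1 higher and 2 lower and for 5C-F 2 higher and 0 lower, to be read against the shares of all genes given above. Without 5C-G B, 9 genes in place of 15 were called for 5C-G. With the offset for GC content and gene length, 10 were called for 5C-G and 9 in place of 19 for 5C-C.

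Among the other acyl-CoA synthetases, 3 of 12 were called lower in 5C-G. These were Slc27a5, the bile acid and very long chain acyl-CoA synthetase (-1.62, adjusted p = 0.000112), Acsm3 (-1.94, adjusted p = 0.0058) and Acsl1, which activates long chain fatty acids (-1.20, adjusted p = 0.00119). In 5C-C 1 was called higher (Slc27a3, 1.62, adjusted p = 0.0124) and 3 lower, among them Slc27a5 (-1.84, adjusted p = 4.34e-05) and Acsm3 (-2.01, adjusted p = 0.00305). In 5C-E only Slc27a5 was called (3.69-fold lower, log2 fold change -1.89, SE 0.233, adjusted p = 0.000123). Slc27a5 had a mean of 15.0 FPKM in 5C, 4.52 in 5C-G, 3.76 in 5C-C and 4.26 in 5C-E. The calls of Acsm3 were lost without 5C A (adjusted p = 0.12 in 5C-G and 0.0748 in 5C-C) and without 5C-G B (0.0876), and that of Slc27a3 without 5C A (0.155). With the offset for GC content and gene length, Slc27a3 in 5C-C was at 0.87 (adjusted p = 0.191) and Acsl1 in 5C-G at -0.81, and neither was then a call. On the log2(FPKM + 1) scale Acsm3 was at -0.86 in 5C-G and -0.89 in 5C-C, and Slc27a3 at 0.88 in 5C-C, all short of the fold threshold.

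Of 15 genes of triglyceride synthesis and lipid droplets, 4 were called lower in 5C-G and 1 higher and 3 lower in 5C-C. Gpam, which encodes the acyltransferase that starts glycerolipid synthesis, fell by 1.23 in 5C-G (adjusted p = 0.000211) and by 1.42 in 5C-C (adjusted p = 6.11e-05). Lpin1, a phosphatidic acid phosphatase, fell by 1.56 (adjusted p = 1.1e-05) and by 1.69 (adjusted p = 8.72e-06). Lpin2, of the same enzyme family, fell by 1.62 and by 1.14, the latter at -0.87 without 5C-C B. With the offset Lpin2 in 5C-C was at -0.52 (adjusted p = 0.0454) and Gpam in 5C-G at -0.96, both short of the fold threshold. In 5C-E the one call was Plin5, a lipid droplet protein (-1.77, SE 0.226, adjusted p = 0.000168), and 13 of the 15 genes had a value below 0, with a median log2 fold change of -0.56. In 5C-F 13 of 15 had a value above 0, with a median of 0.54. In 5C-G 10 of 15 had a value below 0 (median -0.755), in 5C-C 8 did (-0.09) and in 5C against DMSO 6 did (0.06).

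Of 13 lipogenic regulators, Nr1h2, which encodes an oxysterol receptor, rose by 1.11 in 5C-G and 1.32 in 5C-C, and Usf1, an E-box binding factor, rose by 1.07 and 1.23. Insig2, which retains the Srebf1 precursor in the endoplasmic reticulum, fell by 1.04 in 5C-G, and Mbtps2, the protease that releases it, fell by 1.25 in 5C-C. In 5C-F the one call was Nr1h3, the oxysterol receptor that activates Srebf1, at 2.49-fold higher (1.31, SE 0.229, adjusted p = 0.00236), with means of 8.32 FPKM in 5C and 19.3 in 5C-F. The 10 macrophage markers had a median of 1.74 in the same comparison, and Nr1h3 stood at a mean of 13.1 FPKM in DMSO, 13.7 in 5C-G, 14.4 in 5C-C and 7.24 in 5C-E and at 13.04 in the 5C-S library. Without 5C-G B the values in 5C-G were 0.75 for Nr1h2, 0.87 for Usf1 and -0.72 for Insig2, and Usf1 was at 0.99 without 5C A. With the offset for GC content and gene length the values of Nr1h2 were 0.55 in both removals, that of Usf1 0.69 in both, that of Insig2 -0.80, that of Mbtps2 -0.07 and that of Nr1h3 0.96, and none of these was then a call. In 5C-G, Nr1h2 and Usf1 were also under the fold threshold with total counts only (0.96 and 0.93) and on the log2(FPKM + 1) scale (0.91 and 0.87).

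Of 13 genes of the cholesterol pathway, which draws on the acetyl-CoA that Acly makes, 12 had a value above 0 in 5C-E against 5C, with a median of 0.33. The number above 0 was 11 in 5C against DMSO (median 0.18), 10 in 5C-F (0.23), 7 in 5C-C (0.05) and 5 in 5C-G (-0.14). In 5C-G and 5C-C the mevalonate kinases were higher and the isomerase Idi1 lower: Mvk rose by 1.41 and 1.47, Pmvk rose by 1.30 and 1.56, and Idi1 fell by 1.17 and 1.92. In 5C-G the adjusted p of Pmvk was 0.0511 without 5C B, and that of Idi1 was 0.0591 without 5C A and 0.149 without 5C-G B. With the offset the 2 kinases were at 0.65 to 0.97 in these removals, past the adjusted p and short of the fold threshold, and so was Idi1 in 5C-G at -0.64 (adjusted p = 0.0498).

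Of 10 genes of citrate and acetyl-CoA supply, Acss1 rose in 5C-G (2.71, adjusted p = 0.00302, and 0.0544 without 5C B) and 5C-C (2.51, adjusted p = 0.00313), and Slc25a1, the mitochondrial citrate carrier that feeds Acly, rose in 5C-C from 65.5 to 131 FPKM (1.17, adjusted p = 0.000262). With the offset Slc25a1 was at 0.18 (adjusted p = 0.353), and without 5C-C B it was at 0.98. On the log2(FPKM + 1) scale Acss1 was at 0.79 in 5C-G, 0.68 in 5C-C and -0.77 in 5C against DMSO, and Slc25a1 at 0.98 in 5C-C, all short of the fold threshold. Of 7 genes of NADPH supply, Taldo1 of the pentose phosphate pathway rose in 5C-G (1.19) and 5C-C (1.47), and with the offset both values were under 1, at 0.76 and 0.88. Without 5C-G B, Taldo1 was at 0.81 in 5C-G. Of 11 other desaturases and elongases, Tecr rose in 5C-C (1.26, adjusted p = 0.000223) and Elovl7 in 5C-F (1.15, adjusted p = 0.02). With the offset Tecr was at 0.54 (adjusted p = 0.0092), short of the fold threshold. The adjusted p of Elovl7 was 0.113 without 5C A, 0.169 without 5C B, 0.106 without 5C-F A and 0.0551 on the log2(FPKM + 1) scale. Of the 3 genes of malonyl-CoA use and the beta-oxidation gate (Mlycd, Cpt1a and Cpt2), 1 passed the adjusted p as higher in 5C-G, 1 as higher and 1 as lower in 5C-C and 1 as higher in 5C-F, each short of the fold threshold.

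**Figure D4:**
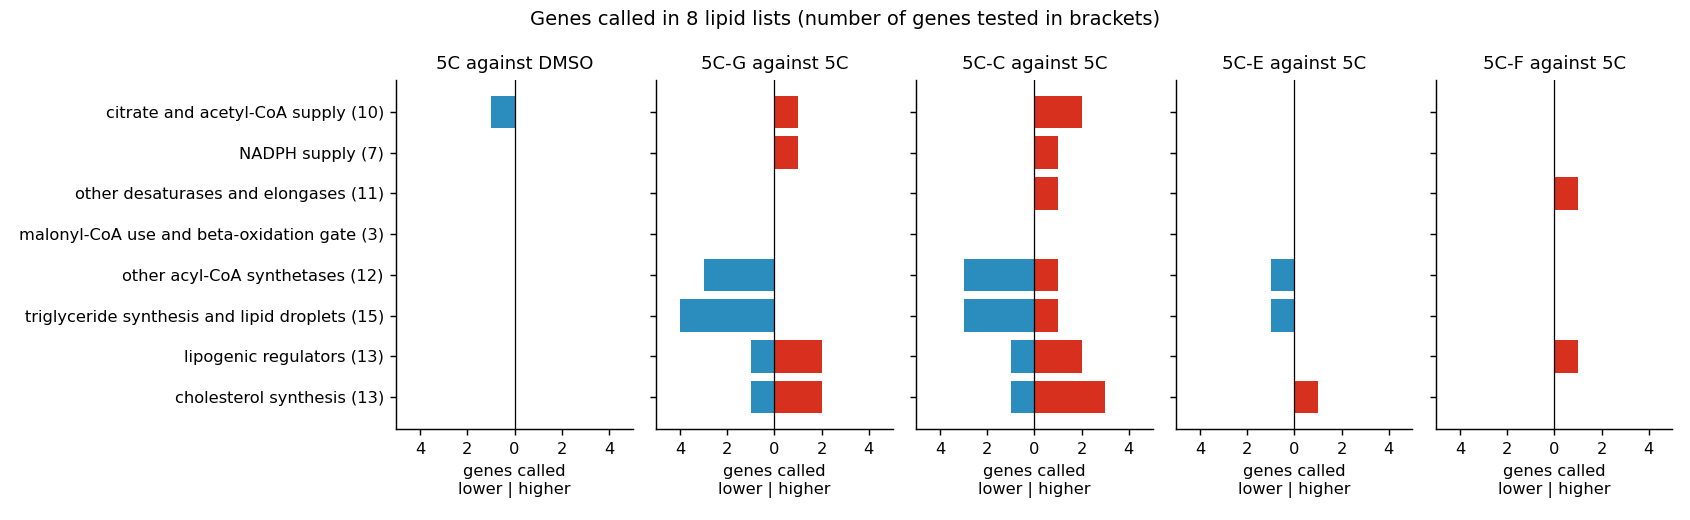
Number of genes called lower (left, blue) and higher (right, red) in each of 8 lists (y axis, genes tested in brackets) for the 5 comparisons. Of the 84 genes, 6 were called higher and 9 lower in 5C-G (7.47% and 5.64% of all genes), 11 and 8 in 5C-C (9.65% and 10.5%; 9 in all with the offset) and 1 and 2 in 5C-E (0.654% and 1.31%).

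Because fold changes followed GC content, each member was also fitted with an offset for GC content and gene length. The calls of Slc27a2 were as large with it as without it, at -1.25 in 5C-G (adjusted p = 0.000813), -2.06 in 5C-C (adjusted p = 1.34e-05) and -1.69 in 5C-E (adjusted p = 0.000219). That of Acacb in 5C-G was -1.12 (adjusted p = 0.00133). Acaca changed most: it was then called higher in 5C-C (1.07, adjusted p = 0.000308) and stood at 0.53 in 5C-G, where it was -0.07 without the offset. Thrsp was then called lower in 5C-G (-1.17, adjusted p = 0.0175). Acly in 5C-E was 0.41 (adjusted p = 0.3) and Fasn in 5C-E was 0.04 (adjusted p = 0.959). Besides Elovl6, Acaca in 5C-E (0.58, adjusted p = 0.076) and Acacb in 5C-C (-0.59, adjusted p = 0.052) no longer passed the adjusted p. Some members passed it only with the offset, short of the fold threshold. These were Acaca in 5C-G (adjusted p = 0.0387), Acaca (0.71, 0.0143) and Fasn (0.49, 0.0284) in 5C-F, Scd1 in 5C-E (-0.62, 0.0432) and Me1 in 5C against DMSO (0.51, 0.0342). Scaling by total counts alone moved the median of all genes to -0.14 in 5C-G, -0.15 in 5C-C and -0.11 in 5C-F.

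**Figure D5:**
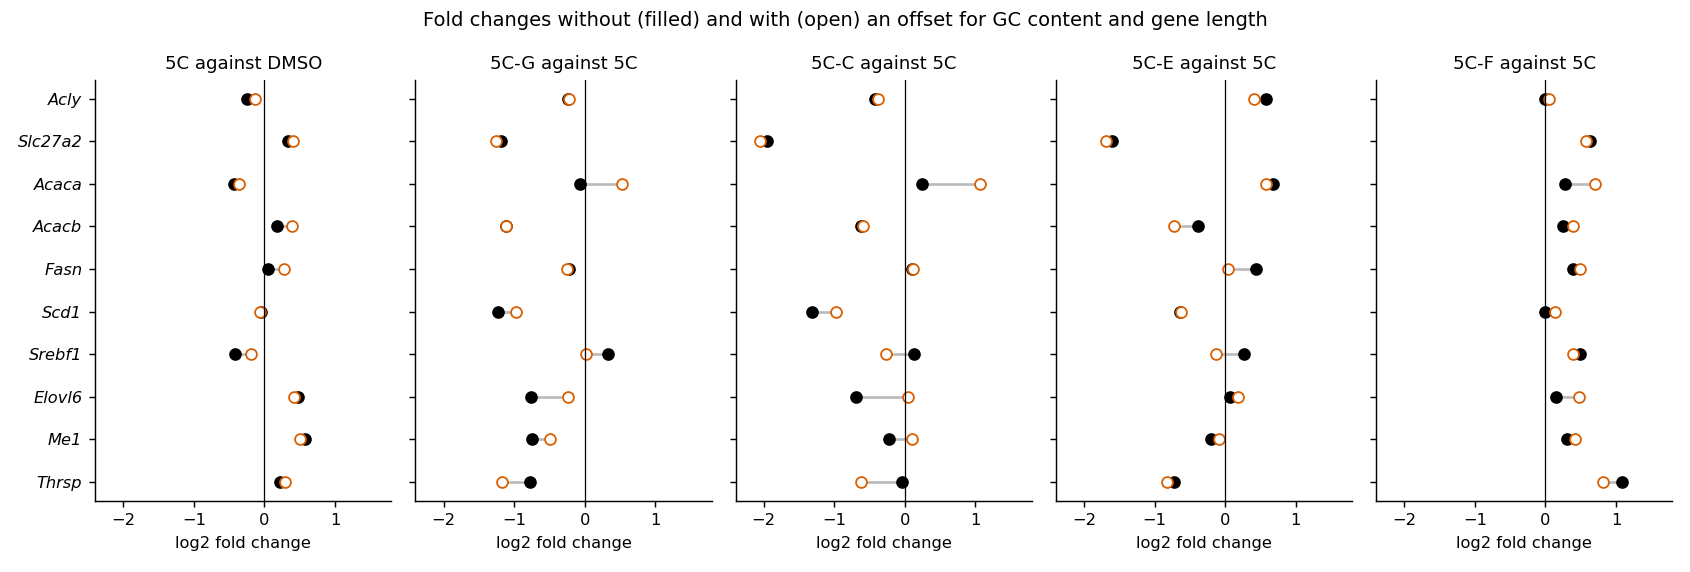
Log2 fold change of each member (y axis) without (filled) and with (open) an offset for GC content and gene length, in the 5 comparisons. Slc27a2 moved little, while Acaca in 5C-C went from 0.24 to 1.07 and Elovl6 in 5C-C from -0.69 to 0.05.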

How the data were processed

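The authors prepared libraries with a NEBNext Ultra RNA kit, sequenced them as paired-end reads on a NovaSeq instrument and mapped them to GRCm39. The submitters' processing notes name featureCounts, Subread and DESeq2; the annotation release and the strand setting are not given in the sources used here. The deposited tables held raw counts and FPKM per gene. The authors' FPKM values are their counts scaled by gene length and library total. Column names give the group and a running number that is not in the labels, so libraries were lettered in column order. The members and the gene lists were chosen with earlier results of these data known.

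Counts were tested with edgeR 4.0.16 in R 4.3.3 (TMM factors, filterByExpr with a minimum count of 10, quasi-likelihood test). All 13 libraries entered 1 fit with group means and 6 residual degrees of freedom. DESeq, which the study used, was replaced by edgeR. P-values were adjusted over 19884 genes. Alternatives used DESeq2 1.42.0 and limma 3.58.1 on log2(FPKM + 1) and log2(FPKM + 0.1). The 5C-S library had no test. SEs come from the fit. The test was also run on simulated data with known changes. That run gave every group the same spread, so it cannot show how the test behaves under the unequal spread of these libraries. Named list genes were up to 3 called genes per list and comparison with the largest changes. The genes most like Acly and Slc27a2 were the 5 with the highest Pearson's r among genes whose group means had an SD of at least 0.5. Promoter windows and gene positions come from the GRCm39 genome with GENCODE M39, which held 26905 of the 27141 gene IDs. A promoter window and a list gene are not reported here.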

Additional observations from a re-analysis of the deposited data

How the results depend on the processing

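Of 836 refitted values of single members, 776 stayed on the same side of 0 and of the call rule, 12 lost a call, 17 gained one and 31 changed sign. Of 396 for list genes, 339 stayed and 57 lost the call. The values that changed sign were otherwise small, at most 0.27 in size before the change, except that of Elovl6 in 5C-C. The cause of these changes was not tested, except that leaving out a library leaves its group with 1, assumed to vary like the others although the spread within groups was unequal. No paired analysis was possible because the labels number only the DMSO and 5C libraries, these share no number, and the running numbers of the columns are not those of the labels. With 2 libraries per group the precision is low, and intervals cover the spread between these libraries alone.

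With no fold threshold the number of members called was 5 without G, 4 without C and 2 without E, against 5C, 3 for 5C-G and 4 for 5C-F against DMSO, and 5 for 5C-E against 5C-G and 3 against 5C-C. The list genes called were then 3 for 5C against DMSO, 39 without G, 42 without C, 8 without E and 10 without F. Members called for 5C-F against 5C numbered 1 with DESeq2, with no filter and with only the 2 groups fitted. With DESeq2, 0 were called for 5C-E against 5C-C. With only the 2 groups fitted, 2 list genes were called for 5C against DMSO and 5 for 5C-E. With total counts only, 2 members were called for 5C-G against DMSO and 1 for 5C-E against 5C-G. On log2(FPKM + 1), 0 members were called for 5C-F against DMSO, 0 list genes for 5C against DMSO and 1 for 5C-F. On log2(FPKM + 0.1), 2 members were called for 5C-E against 5C-G and 1 list gene for 5C-F. With the offset for GC content and gene length, 0 members were called for 5C-E against 5C-C, and 9 list genes for 5C-C and 5 for 5C-E.

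In 5C-F the sign turned with DESeq2 for Acly (0.011) and Scd1 (0.012). With total counts, log2(FPKM + 1) and log2(FPKM + 0.1) the sign turned for Scd1 in 5C against DMSO (0.020, 0.025 and 0.025) and, in 5C-C, for Fasn (-0.061, -0.056 and -0.060) and Srebf1 (-0.036, -0.039 and -0.041). With the offset it turned for Acaca in 5C-G (0.53), for Srebf1 (-0.26), Elovl6 (0.048) and Me1 (0.10) in 5C-C, for Srebf1 in 5C-E (-0.14) and for Acly (0.046) and Scd1 (0.14) in 5C-F.

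Leaving out 1 library at a time, the members called ranged from 0 to 1 for 5C-E against DMSO, 0 to 3 for 5C-F against DMSO, 0 to 1 for 5C-E against 5C-G and 0 to 2 for 5C-E against 5C-C. The list genes called ranged from 0 to 1 for 5C against DMSO, 9 to 21 for 5C-G and 1 to 3 for 5C-F. Log2 fold changes ranged from -0.0024 to 0.098 for Fasn and from -0.17 to 0.087 for Scd1 in 5C against DMSO, from -0.52 to 0.010 for Acly and from -0.21 to 0.018 for Acaca in 5C-G, from -0.33 to 0.20 for Thrsp in 5C-C, from -0.00048 to 0.52 for Srebf1 and from -0.042 to 0.19 for Elovl6 in 5C-E, and from -0.12 to 0.093 for Acly, -0.26 to 0.21 for Scd1 and -0.0095 to 0.29 for Elovl6 in 5C-F.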
